A study of Mus musculus with 3 samples.

Results

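The PIPE-CLIP list of AGO2-bound RNA from mouse P19 cells held 2132 minus-strand clusters that no other peak caller reported, and where the strand of the protein-coding gene beneath them was known, nearly all ran in the direction of the gene. P19 is an embryonal carcinoma line, and AGO2 is the Argonaute protein that carries microRNAs to their target RNAs. The single group, labelled CLIP_AGO2, consisted of 3 HITS-CLIP libraries made with the AGO2 antibody clone 2D4, with no treated, control or input group. HITS-CLIP crosslinks RNA to protein in the cell, pulls the protein down and sequences the RNA fragments that stay attached. The deposited values were 4 peak lists, 1 per caller (CIMS, Piranha, Pyicoclip and PIPE-CLIP), each for the series as a whole, so neither the depth of a library nor the spread among the 3 can be stated.

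The clusters were chosen by 4 properties of the list itself. They had to lie on the minus strand, off the mitochondrial chromosome, off chromosome 11, and without an overlap of 1 nt or more, on either strand, with any peak of the other 3 lists. Of 3257 PIPE-CLIP clusters, 2835 were on the minus strand, 11 of them mitochondrial and 391 on chromosome 11. Of the 2433 that were left, 301 overlapped another list and 2132 did not, which is 65.5% of the whole PIPE-CLIP list. Strand, chromosome and overlap are therefore not findings. Outside the mitochondrial chromosome and chromosome 11, clusters that another list shared were about as frequent on both strands, with 301 on the minus strand and 296 on the plus strand, whereas PIPE-CLIP alone gave 2132 on the minus strand and 69 on the plus strand.

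By way of background, AGO2 is guided to messenger RNAs by the seed of a microRNA, the bases near its 5′ end, and most well-studied target sites lie towards the 3′ end of the message. PIPE-CLIP groups overlapping CLIP reads into clusters and keeps those with more reads than its model allows. CIMS looks for mutations left at the crosslinked base, and Piranha and Pyicoclip look for places where reads pile up. Because a microRNA-guided site is part of a transcript, the strand of a cluster relative to its gene and its place along that gene are the first properties by which a cluster can be described.

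Sequences could be read for the few clusters that reach a RefSeq microRNA hairpin or an annotated gene start (GRCm38.p6, the coordinates of mm10). The first set is shown because a cluster coincided with a whole hairpin. The cluster chr8:72470016-72470090, 75 nt wide with a score of 27, covered all 74 nt of the Mir7068 hairpin, chr8:72470016-72470089, inside the span of the minus-strand gene Cherp. Its mature arms are given 5′ to 3′ with the seed, bases 2 to 8, in capitals.
mmu-miR-7068-5p: gUGAGGCUcaguauggggugg
mmu-miR-7068-3p: uCACCCUGgacugacucucag
The whole hairpin on the minus strand reads as follows.
Mir7068 hairpin: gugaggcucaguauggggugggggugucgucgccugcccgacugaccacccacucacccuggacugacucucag
The arms stand at the outer ends of the hairpin, so the edges of the cluster fell within 1 nt of them. A second cluster touched a hairpin only at its edge. It lay in Plxnb2, a plexin receptor gene, chr15:89162726-89162851, with a score of 35, and shared 4 nt with the 61 nt of Mir7118.

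The second set is shown because these clusters ran across an annotated transcription start. The RefSeq start windows run from 250 nt before to 50 nt after a start. They were at hand for 17492 of 21900 protein-coding genes, so clusters at the starts of the others could not be counted. Of the 2132 clusters, 26 (1.22%) touched a window, 20 of them a window of a minus-strand gene. Among these, 5 covered the start of a minus-strand gene itself. The genes were Rap2c, a Ras-related GTPase gene, Hsp90b1, which encodes an endoplasmic reticulum chaperone, and G3bp2, a stress granule protein gene. The others were Bms1, a ribosome assembly gene, and Cops7a, a subunit gene of the COP9 signalosome. Each line gives 15 bases before the start in lower case and 15 bases from the start on in capitals, 5′ to 3′ on the minus strand.
Rap2c: ccctccgcctctctcCGCACTCTCCTCCCC
Hsp90b1: ggcggaccgcgctgcTGGAGGTGTGAGGAG
G3bp2: ccgagcctttcctgcAAGGTGAGCGGAAGG
Bms1: cagtttccgcttccgGCGTCGTGCTTGCGG
Cops7a: aggtcacgtgggggcGGCCACGTGCACGAC
The Hsp90b1 cluster, chr10:86705330-86705463, had 19 nt before the start and 115 nt from it on, and scored 19. The Rap2c cluster, chrX:51017998-51018091, had 73 nt before the start and 21 nt from it on, and scored 22. The G3bp2 cluster, chr5:92083335-92083405, had 68 nt before the start and 3 nt from it on, and scored 18. Most of the Rap2c and G3bp2 clusters thus lay before the annotated start, and most of the Hsp90b1 cluster after it. The Bms1 cluster, chr6:118419347-118419499, scored 17 and the Cops7a cluster, chr6:124965210-124965297, scored 14. The 30 bases shown stand at chrX:51018004-51018033 for Rap2c, chr10:86705430-86705459 for Hsp90b1, chr5:92083323-92083352 for G3bp2, chr6:118419403-118419432 for Bms1 and chr6:124965252-124965281 for Cops7a.

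Protein-coding spans held 2003 of the 2132 clusters, 93.9% (95% Wilson interval 92.9 to 94.9), when each cluster was placed by its midpoint. No gene span held 69 clusters (3.24%), long non-coding RNA genes 39 (1.83%), small RNA genes other than microRNAs 13 (0.610%), microRNA genes 2 and other genes 6. The microRNA genes were Mir7068 and Mir1893, the latter inside Epc1 with a cluster score of 17. None lay in a ribosomal RNA gene, which allows a share of up to 0.141%. The shared minus-strand clusters on the same chromosomes had a protein-coding share of 72.4% of 301 (67.1 to 77.2), lower by 21.5 percentage points (Fisher's exact test, two-sided, adjusted p = 4.99e-25 by Benjamini-Hochberg over 10 tests). The shared clusters also had higher scores. With scores of at least 20 only, the shares were 92.4% and 77.7%, a difference of 14.6 points (exact test, adjusted p = 1.01e-04). With widths of 60 to 100 nt, chosen after seeing the data, they were 94.4% and 64.5%, a difference of 29.9 points (exact test, adjusted p = 4.48e-15). Of the shared clusters 17.6% lay in no gene and 4.65% in small RNA genes, shares that were not tested. The 69 plus-strand clusters of PIPE-CLIP alone had 92.8% (84.1 to 96.9) and the 349 minus-strand clusters of PIPE-CLIP alone on chromosome 11 had 95.1% (92.3 to 96.9), and neither differed detectably (exact test, adjusted p = 0.869 and 0.769). These intervals and tests cover counting error only and take clusters as independent, although a gene can hold several.

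The next comparison asked whether the clusters run in the direction of their genes. Gene strand came from the RefSeq start windows, which gave it for 17492 of 21900 protein-coding genes (79.9%), 50.1% of them on the minus strand, and for no gene of chromosome 18. Of the clusters, 1857 had their midpoint in a protein-coding span and in no other span, and 1449 of these were in genes of known strand. Sense clusters numbered 1439 and antisense clusters 10. Since a gene has 1 strand, genes were counted. Of 858 genes of known strand, 848 lay on the minus strand, a sense share of 98.8% (97.9 to 99.4), against 50.1% of annotated genes (exact binomial test, two-sided, p = 1.44e-235). The remaining 220 genes, 20.4% of 1078, had no strand in the table. Among 166 clusters in more than 1 span, 118 had a minus-strand gene beneath them, but in 54 there were genes of both strands, so that their direction is ambiguous. Of the 166, 48 had no minus-strand gene but at least 1 gene of unknown strand, and 0 had plus-strand genes only. Of 33 clusters in exactly 1 long non-coding span, 24 were in minus-strand genes, 9 in genes of unknown strand and 0 in plus-strand genes.

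**Figure D1:**
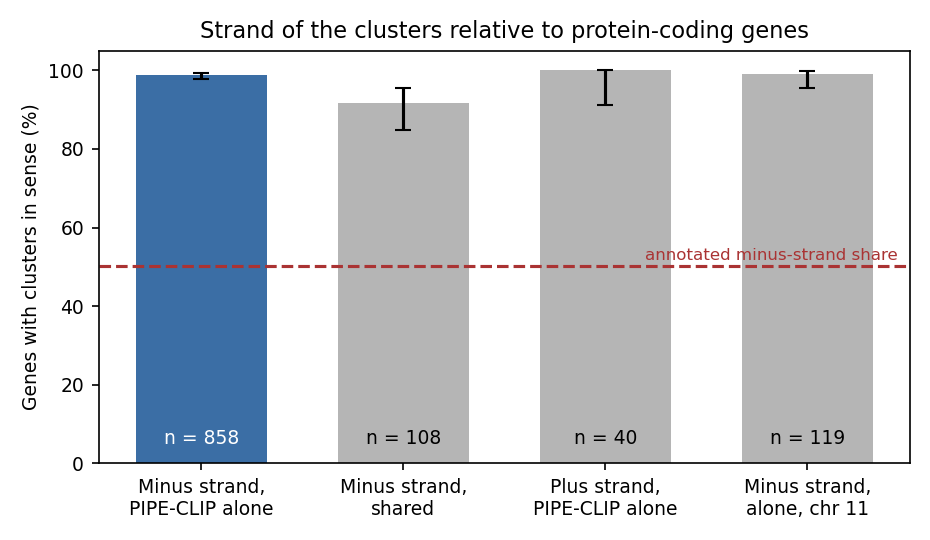
Bars give the percentage of protein-coding genes whose clusters run in the direction of the gene, for 4 sets of PIPE-CLIP clusters, with 95% Wilson intervals and the number of genes (n) of known strand; the dashed line is the minus-strand share of annotated genes, 50.1%, and applies to the minus-strand sets. Sense shares are 98.8% for the minus-strand clusters of PIPE-CLIP alone, 91.7% for shared minus-strand clusters, 100% for plus-strand clusters of PIPE-CLIP alone and 99.2% for chromosome 11.

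The sense share was higher than that of shared minus-strand clusters, where 99 of 108 genes were sense, 91.7% (84.9 to 95.6), a difference of 7.17 percentage points (Fisher's exact test, adjusted p = 3.50e-04 over 10 tests). Among clusters 60 to 100 nt wide, a setting chosen after seeing the data, the difference was 4.05 points and was not called (exact test, adjusted p = 0.193). All 40 genes of known strand with plus-strand clusters of PIPE-CLIP alone were sense, and so were 118 of 119 genes on chromosome 11. Neither differed detectably from the 98.8% (exact test, adjusted p of 1 for each). Genes can be in more than 1 of these sets.

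The 10 antisense clusters were in 10 genes and scored 10 to 18. They are named here because there are so few, after their values were seen. Slc28a2b, a gene of a nucleoside transporter family, had the highest score of 18, followed by Lrrc9 with 17 and Fntb, the gene of the farnesyltransferase beta subunit, with 15. Kmt5c, a histone methyltransferase gene, Ccnj, a cyclin gene, and Zfp202 each had 14. Foxp3, the regulatory T cell factor, had 12, Ank, a pyrophosphate transport gene, had 11, and Nos1, the neuronal nitric oxide synthase gene, and Map2, a neuronal microtubule protein gene, had 10. The highest score among them, 18, is below the 90th percentile of the sense clusters, 21, while both groups had similar middles, a median of 14 for antisense and 13 for sense clusters. Of the 10, only the Fntb cluster lay in the last 10% of its gene, at 96.7% of the span. A separate antisense case was the imprinted Gnas locus on chromosome 2, whose gene lies on the plus strand. It held 5 clusters, scoring 22, 19, 14, 20 and 19 in genomic order, and all 5 were inside the span of the antisense RNA gene Gnasas1. Because they lay in more than 1 span, they do not enter the counts above.

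Along the gene, the clusters gathered at the end. Taking the highest-scoring cluster of each gene and reading each span in the direction of the gene, 347 of 858 genes (40.4%, 37.2 to 43.8) had it in the last 10% of the span and 84 (9.79%) in the first 10% (exact binomial test, two-sided, p = 4.87e-39). For the 848 sense genes, the last 10% held 346 (40.8%) and the first 82 (9.67%), and each of the other parts held between 32 and 85 genes. Genes of unknown strand, read along the minus strand, showed a like share, with 95 of 220 (43.2%, 36.8 to 49.8) in the last 10% and 18 in the first. For the antisense genes the last 10% held 1 of 10 and the first 2. The difference between sense and antisense genes was 30.8 percentage points and was not called (exact test, adjusted p = 0.111), though it was with ends of 20% (adjusted p = 0.0216). Exons were not used, so coding and non-coding parts of the transcript could not be told apart.

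**Figure D2:**
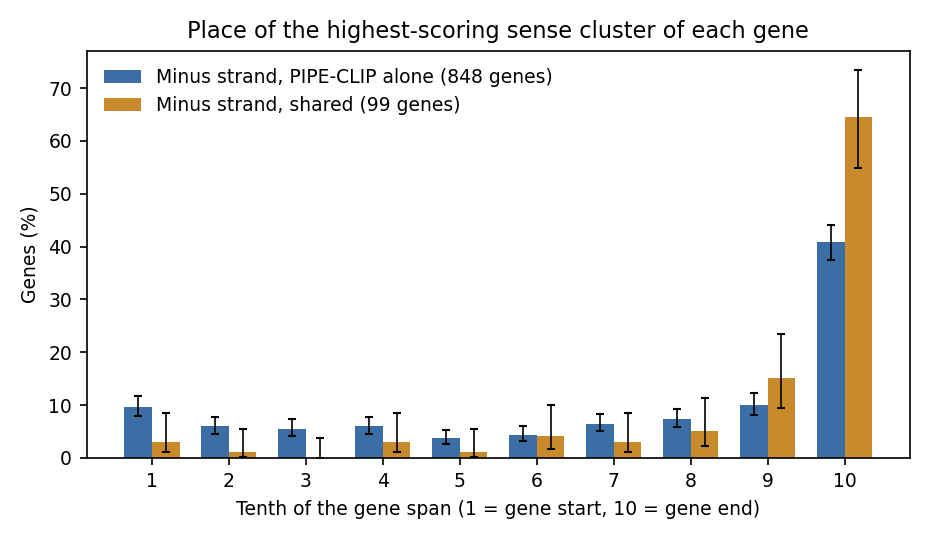
Bars give the percentage of genes whose highest-scoring sense cluster falls in each 10% of the gene span, read from gene start to gene end, with 95% Wilson intervals, for the minus-strand clusters of PIPE-CLIP alone (848 genes) and the shared minus-strand clusters (99 genes). The last 10% holds 40.8% and 64.6% of genes, and every other part holds at most 15.2%.

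The share at the end was lower than in shared minus-strand clusters, where 65 of 108 genes (60.2%, 50.8 to 68.9) had the cluster in the last 10%, a difference of -19.7 percentage points (Fisher's exact test, adjusted p = 4.00e-04). The score moved with place. Among sense clusters, the last 10% held 34.6% at a score of 10, 36.8% at 11 to 14, 38.5% at 15 to 19, 47.9% at 20 to 29 and 63.0% at 30 or more. With scores of at least 20 only, the difference from shared clusters was -6.21 points and was not called (exact test, adjusted p = 0.601). Plus-strand clusters of PIPE-CLIP alone had 24 of 40 genes there (44.6 to 73.7%), a difference of -19.6 points that was not called (exact test, adjusted p = 0.0509). That difference was called under 5 alternative settings and not under others, and with scores of at least 20 it was 2.69 points, the other way. Chromosome 11 had 38.7% of 119 genes (exact test, adjusted p = 0.956).

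The distance to the gene end showed the same in long genes, where a fixed share of the span covers much sequence. In sense genes with spans over 200 kb, 19 of 75 (25.3%, 16.9 to 36.2) had the cluster within the last 5 kb, where an even spread over those spans would give 1.51%, and 2 within the first 5 kb. For spans of 50 to 200 kb the last 5 kb held 128 of 316 genes (40.5%, 35.2 to 46.0) against 5.95% for an even spread. For 10 to 50 kb it held 57.6% against 22.9%. In spans of up to 10 kb the last 5 kb held 91.7% against 83.7%, and the last 10% of the span held only 19.8% of those 96 genes. By the last 10% of the span the shares were 42.7% for 10 to 50 kb, 46.2% for 50 to 200 kb and 27 of 75 genes above 200 kb. The even spread takes exon and intron bases alike, so where the exons lie is not accounted for.

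Of the 69 clusters outside genes, 46 had a protein-coding span within 10000 nt on the high-coordinate side, where a minus-strand gene would end before reaching the cluster. That gene was on the minus strand for 22, on the plus strand for 7 and of unknown strand for 17. On the opposite side, 27 clusters had a protein-coding span within 10000 nt, on the minus strand for 12 and on the plus strand for 6. Ago2, which encodes the precipitated protein, had 5 such clusters, from 24 to 5298 nt past its annotated end as read along the minus strand, with scores of 11 to 27. Those at 4447 to 5298 nt lay nearer to Chrac1, also of unknown strand, at 2145 to 2958 nt from it. Trim71, a let-7 target and RNA-binding ubiquitin ligase gene, had 4, from 252 to 2758 nt past its end, with scores of 16 to 28. Lnpep, an aminopeptidase gene, had 3, from 946 to 3189 nt, with scores of 17 to 23. Whether transcripts of these genes reach that far was not tested.

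Scores were low and narrow in range. Each cluster's score was set by the authors, with no unit stated in the sources used here, and the lowest is 10. The median was 13, with quartiles of 11 and 16 and a highest value of 56. The median width was 80 nt, with quartiles of 65 and 100 nt and a range from 34 to 338 nt. A score of exactly 10 was held by 351 clusters (16.5%), and 42 (1.97%) had 30 or more. Across the 2132 clusters, score and width went together, with Pearson's r = 0.600 and Spearman's rho = 0.513, a description only, since both come from the same list and reads. Plus-strand clusters of PIPE-CLIP alone had a like median score of 12, with a median width of 106 nt. The minus-strand clusters of PIPE-CLIP alone on chromosome 11 had medians of 13 and 84 nt. Low scores were thus not particular to the clusters described here. Shared minus-strand clusters had a median score of 23 and a median width of 107 nt. Overlap with another list depends on score and width, so no test was made. Of all minus-strand clusters outside the left-out chromosomes, PIPE-CLIP was the only caller for 97.8% at a score of 10, 89.8% at 15 to 19 and 28.4% at 30 or more.

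Few clusters lay at the edge of the overlap rule. The median distance to the nearest peak of another list was 205615 nt, and 1770 clusters (83.0%) had none within 10000 nt. Just inside were 2 clusters within 10 nt of another peak, in Rlim with a score of 12 and a gap of 4 nt and in Atp2a2 with a score of 14 and a gap of 8 nt. Just outside were 2 shared clusters, in Tfap4 with a score of 11 and an overlap of 1 nt and in Trim71 with a score of 33 and an overlap of 9 nt.

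The highest scores were in a handful of genes. Klf13, a Krüppel-like transcription factor gene, had the highest, 56, at chr7:63890506-63890754, where another list had a peak 410 nt away. Hsp90ab1, the gene of the cytosolic chaperone HSP90-beta, gave 53, 44 and 39. Prrc2a, which encodes an RNA-binding coiled-coil protein, gave 46 and 39, and the nearest peak of another list was over 100 kb away from each, at 109441 and 107150 nt. Irf2bp2, a transcriptional corepressor gene, and Phip, a chromatin-reader gene, each gave 45. Adnp, a homeobox gene, gave 40 in a cluster that also lies in the span of Gm20716, and Gdf11, a ligand of the TGF-beta family, gave 39.

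Counting every span at the midpoint, 1193 protein-coding genes held a cluster, 5.88% of the 20278 annotated outside chromosome 11 and the mitochondrial chromosome. Among minus-strand genes the share was 11.2%, 908 of 8113. Among plus-strand genes it was 0.456%, 37 of 8108, a count that includes genes overlapped by a minus-strand gene. A single cluster was found in 783 genes (65.6%), 2 or more in 410 (34.4%) and 5 or more in 67, which together held 421 gene-to-cluster pairs. The highest number was 10, in 5 genes. Genes with 5 or more clusters had a median span of 71561 nt, those with 1 had 37131 nt, and all annotated protein-coding genes had 17146 nt. Within a gene, neighbouring clusters were a median of 2864 nt apart, and 256 of 779 pairs (32.9%) were within 1000 nt.

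**Figure D3:**
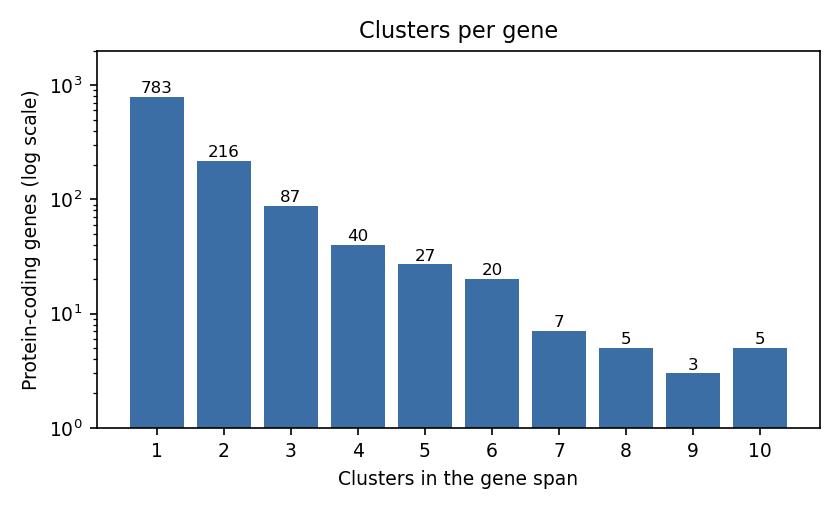
Bars give the number of protein-coding genes (log scale) by the number of minus-strand clusters of PIPE-CLIP alone in the gene span. Numbers above the bars run from 783 genes with 1 cluster to 5 genes with 10.

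In 83.7% of the 1193 genes, no peak of the other 3 lists had its midpoint in the span. The like share over all annotated protein-coding genes was not computed, and the clusters were chosen for not overlapping those lists. The 83.7% is therefore not read as a trait of these genes. The share was 89.9% for genes with 1 cluster and 43.3%, 29 of 67, for genes with 5 or more. Among those 29 were Kmt2d, Kmt2a, Prrc2a, Efna5, Cux1, Phip and Tgfbr2, with 6 to 10 clusters each and no peak of another list. By contrast Slc38a2, Pmepa1 and Eif3a each had 5 peaks of other lists beside 8, 9 and 7 clusters here.

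Hsp90ab1 carried the run with the most clusters. Its 10 clusters stretched over 3755 nt of a span of 5484 nt, and from low to high coordinate they scored 44, 12, 21, 39, 10, 14, 21, 53, 22 and 15. They covered the gene from 30.5% to 96.1% of the span, read along the minus strand, and so did not gather at its end. Prrc2a also had clusters throughout, from 14.5% to 95.9% of the span, with scores of 16, 14, 14, 39, 28, 46, 10, 23, 10 and 18 in the same order, the 3 highest of them between 57.7% and 72.0%.

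Ago2 itself was among the genes with most clusters. Within its span, chr15:73101625-73184947, 8 of 10 clusters were in the last 10% of the span, read along the minus strand, and their scores from low to high coordinate were 16, 15, 11, 31, 18, 10, 19 and 17. The others scored 25 and 11. Together with the 1 nearest past the annotated end, these 8 formed a run of 9 clusters within 5025 nt, in which no gap exceeded 1000 nt. Ago1, a paralogue on chromosome 4, had 6 clusters, all between 87.9% and 99.7% of its span, with scores of 12, 13, 28, 12, 13 and 18. Dicer1, which cuts microRNA precursors, had 2, the higher scoring 31, Trim71 had 3 within its span and Cnot2, of the CCR4-NOT deadenylase, had 1. Of the RNA silencing list, 4 of 7 minus-strand genes held a cluster, and Ago3, Ago4 and Dgcr8 held none. Over all annotated minus-strand genes the share was 11.2%. The list gave 22 clusters, but 10 of them were in Ago2, which is of unknown strand and not among the 7. The list was chosen with earlier results known, so nothing particular to it is read from these counts.

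**Figure D4:**
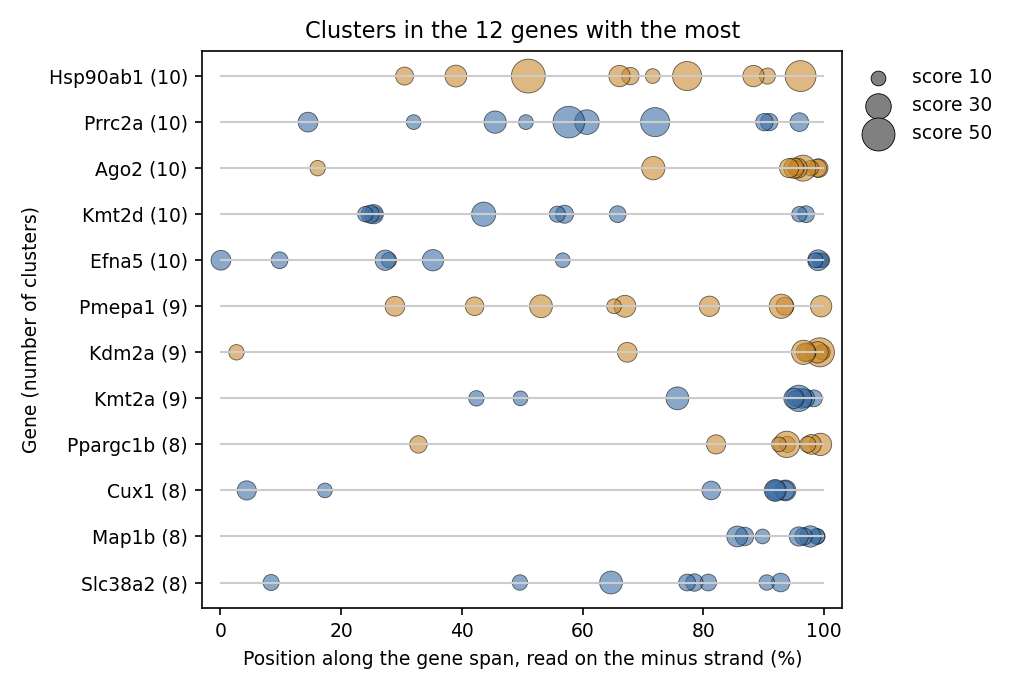
Each circle is 1 minus-strand cluster of PIPE-CLIP alone in the 12 protein-coding genes with the most (of 5 genes with 8, Sox11 has the lowest summed score, 99, and is left out), placed by its position along the gene span (percent, read on the minus strand from gene start to gene end); its area follows the score, blue marks genes known to lie on the minus strand and orange genes of unknown strand. In Kmt2a, Map1b and Ago2 most circles sit beyond 85% of the span, while Hsp90ab1 and Prrc2a have them throughout.

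The chromatin list, the longest with 35 entries, held 54 clusters. Kmt2d and Kmt2a, both histone H3 lysine methyltransferase genes of the MLL family, had 10 and 9 clusters. In Kmt2a, 6 were in the last 10% of the span, scoring 13, 16, 18, 32, 11 and 19, and 5 of these formed a run of 1541 nt. In Kmt2d only 2 of 10 were there, and a run of 4 clusters within 765 nt lay near 25% of the span, with scores of 10, 17, 15 and 11. Kdm2a, a histone demethylase gene, had 9, of which 7 were in the last 10% if the gene, of unknown strand in the table, is read along the minus strand. Its highest score was 39, in a cluster of 338 nt, the widest of all. Arid1a, of the BAF remodelling complex, had 5, and Crebbp, Tet3 and Cbx7 had 3 each. Of the chromatin list, 11 of 17 minus-strand genes (64.7%, 41.3 to 82.7) held a cluster and 0 of 10 plus-strand genes did. Over all annotated genes of each strand the shares were 11.2% and 0.456%.

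Among the other lists, minus-strand members with a cluster numbered 8 of 12 for cytoskeleton and motors, 7 of 13 for splicing factors and hnRNP proteins, 5 of 11 for cell cycle regulators, 5 of 8 for pluripotency factors and 5 of 7 for nucleolar and chaperone proteins. They were 3 of 6 for translation factors, 3 of 7 for Wnt, Notch, Nodal and growth factor signalling, 3 of 5 for glycolysis and metabolism and 1 of 6 for ribosomal proteins. The 5 of the pluripotency list include Tcf3 on chromosome 10, which is the E2A gene and not the pluripotency factor gene Tcf7l1 on chromosome 6. The share over all minus-strand genes is the 11.2% given above. These lists were chosen with earlier results known. No level of the transcripts was measured, and whether abundance or length of the transcripts matters was not tested. Nothing particular to a list is therefore read from its count. Across the 12 lists other than that of markers of other cell types, 0 plus-strand genes held a cluster. The share over all plus-strand genes was 0.456%, so low that nothing about the lists is read from the 0.

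Map1b, a microtubule protein gene, had 8 clusters, all beyond 85.6% of its span, with scores of 10 to 21. Actb and Tubb5, of actin and tubulin, had 4 each. Eif3a, a subunit of the initiation factor eIF3, had 7, spread from 28.6% to 96.4% of the span, and Eif4g2 and Pabpc1, of translation initiation and poly(A) binding, had 5 and 4. Of the 7 genes with a cluster in the list of splicing factors and hnRNP proteins, Hnrnpu had 2 and the others 1 each. In signalling, Tgfbr2, the type II receptor of TGF-beta, had 6 clusters, 4 of them in the last 10% with scores of 23, 18, 17 and 18, and Dll1, a Notch ligand, had 3. Smad4, which carries TGF-beta signals to the nucleus, had 2 scoring 19 and 12. Rps3, a ribosomal protein gene, had 2 scoring 11 and 23, and Rpl32 had 1 scoring 13. Hnrnpm and Hnrnpa2b1 had scores of 13 and 12. Calr, an endoplasmic reticulum chaperone gene, had 2 of score 10, at 21.1% and 2.29% of the span. Slc2a3, a glucose transporter gene, and Pfkl, of glycolysis, had 3 each. Among the cell cycle genes, Ccnd2 had 3 and E2f1 and Ccna2 had 1 each, scoring 26 and 18.

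Whether P19 cells express the genes of the pluripotency list was not measured. In that list Lin28a, which blocks let-7 maturation, had 3 clusters scoring 23, 28 and 13. Its relative Lin28b had 2 scoring 12 and 15, at 62.4% and 23.3% of the span. Otx2, a homeobox gene of the early embryo, had 3 clusters with scores of 15, 11 and 12, none of them in the last 10%. Klf4, Zfp42 and Tdgf1 were minus-strand genes without a cluster. Of markers of other cell types (neurons, muscle and blood), 0 of 5 minus-strand genes held a cluster, Neurod1, Syn1, Acta1, Hbb-bs and Ptprc. The Wilson interval of that share reaches 43.4% and holds the 11.2% over all minus-strand genes, so no absence is read from it. The only marker with a cluster was the antisense case in Map2.

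Other genes with many clusters had mixed places. Efna5, which encodes an ephrin ligand, had 10 over a span of 278361 nt, 4 within the last 10% and 1 within 213 nt of the gene start, with scores between 10 and 21. Cux1, a homeobox gene, had 8 in a span of 319456 nt, and the 5 in the last 10% were still over 20 kb from the annotated end, with the nearest at 20407 nt. Pgap1, of GPI anchor processing, had all 7 in the last 10%, with scores of 10 to 21, and Phip had 6 of 7 there. Pmepa1, a target of TGF-beta signalling, had 9 with scores of 10 to 27, spread from 28.9% to 99.5% of the span as read along the minus strand. Slc38a2, an amino acid transporter gene, had 8 with scores of 11 to 24. Ppargc1b, a transcriptional coactivator gene, had 8 clusters with a highest score of 32.

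Of the long non-coding genes, 2 on chromosome 19 whose RNAs stay in the nucleus held 14 clusters. Malat1 had 7 clusters with scores of up to 26, 5 of them in a run of 1801 nt, chr19:5800390-5802190. Neat1, the scaffold of paraspeckles, had 7 with scores of up to 21. Snhg8, a host of small nucleolar RNAs, had one scoring 24 and another of 26 at the place of Snora24. Gt(ROSA)26Sor had 23 and 1110038B12Rik had 20. Small RNA genes inside hosts gave clusters of 20 in Rpl30 and of 15 in Rps12, and 4 clusters had a score of 14, at Snord52, Snord45c and the transfer RNA genes n-TGccc6 and n-TSgct6. Where such a gene lies in a host, the host and the small RNA cannot be told apart.

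**Figure D5:**
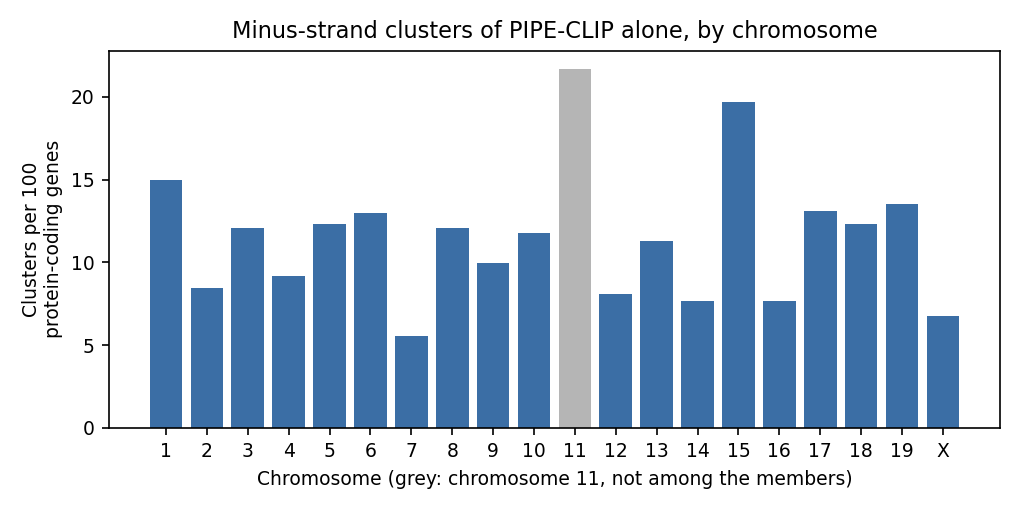
Bars give the number of minus-strand clusters of PIPE-CLIP alone per 100 annotated protein-coding genes for each chromosome; blue bars are the 19 chromosomes of the clusters described here and the grey bar is chromosome 11. Blue bars run from 5.57 on chromosome 7 to 19.7 on chromosome 15, and the grey bar stands at 21.7.

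By chromosome, the clusters numbered 5.57 to 19.7 per 100 protein-coding genes, with a median of 11.8 over 19 chromosomes, and chromosome 11 had 21.7. The clusters carry running numbers that follow genome order with 0 neighbours out of order and reach 222973 for 3257 deposited clusters. Per 1000 such numbers, the count was 6.12 on chromosome 12, 10.3 in the median and 16.3 on chromosome 17, against 21.5 on chromosome 11. The share of minus-strand genes with a cluster was 19.1% (16.3 to 22.3) on chromosome 11 and 16.3% (13.3 to 19.8) on chromosome 1, the highest among the others, and the intervals overlap. Chromosome 11 was left out by the rule, so this is a description with no test.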

How the data were processed

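Per the submitters' processing notes, reads were handled with cutadapt and Novoalign and the genome build was mm10. Tool versions, caller settings and the way libraries were pooled are details not given in the sources used here. The deposited lists give each peak a score, the authors' own value, used only to describe and rank within the list. Positions are 1-based.

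Clusters were placed by midpoint in RefSeq gene spans (GRCm38.p6), with classes taken in the order ribosomal RNA, microRNA, other small RNA, protein-coding, long non-coding and other. Gene strand came from the RefSeq start windows. Exact binomial and Fisher's tests were two-sided, with a threshold of 0.05 and Benjamini-Hochberg adjustment over 10 Fisher's tests. Seed matches were planned and not run, since no genome was used. The members and lists were chosen with earlier results of these data known. All 314 entries of the 13 lists matched the table. Named genes were the 12 with the most clusters (ties by summed score, here and in the lists), those of the 10 highest scores, the 3 of each list with the most clusters, the 5 long non-coding and 5 small RNA genes of the highest scores, and the 3 sense and 3 antisense genes with the most clusters in the last 10% (only Fntb qualified as antisense). All other genes named, among them those at hairpins, gene starts, past gene ends, at the edge of the rule, in Gnas and further list members, were chosen after their values were seen. A few genes this rule selects are not reported here. The calculation was checked on simulated clusters. Python 3.11.15, numpy 2.4.6, pandas 2.3.3, scipy 1.17.1 and matplotlib 3.10.9 were used.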

Additional observations from a re-analysis of the deposited data

How the results depend on the processing

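Over 7 alternatives the sense share stayed between 96.1% and 100%, and over 9 the share in the last 10% of the span between 35.9% and 52.7%. Of the values recomputed in all, 119 kept their side of the threshold or stayed close, 6 came to pass the threshold, 2 no longer passed it and 7 counts or medians moved. The 119 include differences that changed sign and passed the threshold neither before nor after. These numbers leave out overlap on the same strand only, which altered no value, and an expected share of 50%, which cannot alter the sense share. With scores of at least 20 there were 288 clusters, a median score of 23 and width of 110 nt, 219 genes and 44 genes with 2 or more, and the difference of the last-10% share, 52.7%, from shared clusters no longer passed the threshold (Fisher's exact test, adjusted p = 0.601). With widths of 60 to 100 nt, chosen after seeing the data, there were 1280 clusters, 236 genes with 2 or more, and a sense share of 99.1% whose difference from shared clusters no longer passed it (exact test, adjusted p = 0.193). The lower last-10% share against plus-strand clusters of PIPE-CLIP alone passed the threshold with every cluster counted (38.4%, adjusted p = 0.00335), chromosome 11 added (40.2%, 0.0247), spans of at least 10 kb (43.0%, 0.0346), widths of 60 to 100 nt (35.9%, 0.0384) and end parts of 20% (50.3%, 0.00776), all by exact tests. With end parts of 20%, the sense genes' 50.8% also differed from the antisense genes (exact test, adjusted p = 0.0216). The cause was not tested. No paired analysis was possible because there is 1 group and the lists hold no values per library. Strand was unknown for 20.4% of genes, and no library can be left out.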
